A study of Homo sapiens with 6 samples.

Results

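The 3 control libraries of AF22, an established line of human neural stem cells, were described here without any knockdown comparison. They were taken by their sample titles, which name them shControl and number them 1 to 3, and they are 3 of the 6 libraries of the series. The other 3 carry a knockdown of BMI1 and COMMD3-BMI1 and were not compared with them. The labels give the genotype of the control cells as WT, name no time in culture, dose or passage, and give no other agent than the control short hairpin RNA, whose target sequence and vector are not named in the sources used here. RNA was taken as total RNA, and directional sequencing libraries were made from it. All libraries come from 1 line, and the labels do not say whether the 3 came from separate cultures, so the spread between them may be partly or wholly technical.

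AF22 cells are of the kind called long-term self-renewing neuroepithelial-like stem cells, which are grown from reprogrammed human cells in medium with FGF2 and EGF. Such cells form rosettes, divide in culture, and can give rise to neurons and glia. The position of a neural progenitor along the axis of the embryonic brain is read from its transcription factors: EMX2 and OTX2 mark the front, EN1, EN2, PAX2 and PAX5 the midbrain-hindbrain boundary, GBX2 the anterior hindbrain side of that boundary, and the HOX genes the hindbrain and spinal cord in the order of their clusters.

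A gene's counts are given per 1000000 counts of its library (CPM) when libraries are compared, and per kilobase of its exons, scaled to a sum of 1000000 in each library (TPM), when genes are compared. A symbol is called detected at 1 CPM or more in all 3 libraries and listed at 0 when no library has a count, and the symbols between are called trace. The libraries hold 5496683, 6387898 and 6870122 counts over 26485 gene symbols, so 1 CPM stands for 5.50 to 6.87 counts. A symbol without a count in the 18754703 counts of the 3 libraries may still be present at up to 0.16 CPM, the level of 3 counts, and this limit covers counting error only. Of the 26485 symbols, 12918 (48.8%) were detected, 5030 were trace and 8537 (32.2%) were listed at 0. Protein-coding genes made up 98.7% of the counts, and 12078 of their 19116 symbols were detected.

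The 5 marker genes that go with the line were all detected, at very different levels. SOX2 (chr3:181711924-181714436), a transcription factor of neural stem cells, had 2090, 2082 and 2274 counts in libraries 1, 2 and 3, or 639 ± 55.1 TPM (mean ± SD, n = 3, as in all values written this way). NES (chr1:156668763-156677397), which encodes the intermediate filament nestin, had 5304, 6907 and 7314 counts and 866 ± 53.7 TPM. VIM (chr10:17228259-17237593), the intermediate filament vimentin, had 9958, 11783 and 14188 counts and 1716 ± 116 TPM. PAX6 (chr11:31784779-31818062), a paired-box factor of many neural progenitors, had only 91, 76 and 109 counts, or 3.29 ± 0.548 TPM. These levels depend on the length given to each gene. With the longest transcript as length for all genes SOX2 had 459 TPM, NES 623 TPM, VIM 2387 TPM and PAX6 6.76 TPM, and with the median transcript 137, 186, 1806 and 8.49 TPM. The exons of PAX6 in the annotation join to 20812 bases, while its longest transcript has 7290. HOXB2 (chr17:48540894-48544989) had 92, 172 and 57 counts and 34.5 ± 18.7 TPM, so its libraries differed more than those of the other markers; with the longest and the median transcript it had 37.1 and 18.5 TPM. Positions are those of GENCODE release 29 on GRCh38. In bulk RNA such as this, fewer cells that express a gene and less of its RNA per cell cannot be told apart.

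The sequence around the start of a gene is shown for 4 genes that stand for the groups described below: a stem cell factor and a regional factor at high levels, a HOX gene without counts, and an olfactory receptor gene without counts. HOXA9 and OR10A2 were taken because their number of CG pairs is the nearest to the median of their groups. Each sequence holds 250 bases before and 50 after the RefSeq start on GRCh38.p14, on the gene's own strand, with every CG in capitals. The stretches are chr3:181711675-181711974 (plus strand), chr2:236168337-236168636 (minus strand), chr7:27165488-27165787 (minus strand) and chr11:6862807-6863106 (plus strand).
SOX2: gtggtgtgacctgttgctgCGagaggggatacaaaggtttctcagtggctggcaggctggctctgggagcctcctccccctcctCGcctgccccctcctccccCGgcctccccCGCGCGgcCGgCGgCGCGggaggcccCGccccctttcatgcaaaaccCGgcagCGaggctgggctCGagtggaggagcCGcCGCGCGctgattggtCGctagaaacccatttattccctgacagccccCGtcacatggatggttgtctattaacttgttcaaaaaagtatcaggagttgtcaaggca
GBX2: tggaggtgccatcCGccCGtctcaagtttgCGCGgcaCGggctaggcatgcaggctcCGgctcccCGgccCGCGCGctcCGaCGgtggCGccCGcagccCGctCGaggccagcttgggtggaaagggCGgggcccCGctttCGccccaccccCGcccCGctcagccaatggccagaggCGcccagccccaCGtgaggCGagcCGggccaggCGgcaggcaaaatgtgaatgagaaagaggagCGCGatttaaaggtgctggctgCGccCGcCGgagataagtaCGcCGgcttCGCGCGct
HOXA9: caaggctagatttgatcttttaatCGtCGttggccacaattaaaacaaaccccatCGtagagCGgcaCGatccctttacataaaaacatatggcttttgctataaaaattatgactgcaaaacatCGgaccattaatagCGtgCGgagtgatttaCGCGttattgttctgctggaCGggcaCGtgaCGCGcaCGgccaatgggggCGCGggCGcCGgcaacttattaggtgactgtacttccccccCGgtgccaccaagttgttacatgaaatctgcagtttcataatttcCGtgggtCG
OR10A2: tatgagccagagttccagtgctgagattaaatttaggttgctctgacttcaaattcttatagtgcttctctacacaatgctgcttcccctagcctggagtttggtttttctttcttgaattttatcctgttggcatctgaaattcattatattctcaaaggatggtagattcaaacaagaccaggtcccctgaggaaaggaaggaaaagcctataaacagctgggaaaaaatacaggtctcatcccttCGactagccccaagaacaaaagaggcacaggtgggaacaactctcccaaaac
The first holds 20 CG pairs, the second 36, the third 22 and the fourth 1. The last 2 also hold the letters TATAAA on one of their strands.

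Over all genes the number of CG pairs in this window went with detection, but not for every silent family. The median was 27 in the 9435 detected protein-coding genes found in the RefSeq table and 5 in the 2929 listed at 0. HOX genes listed at 0 had a median of 22.5 pairs (20 of 36 were in the table), close to the 23 of the 672 detected transcription factors. All transcription factors listed at 0 had a median of 19 (135 of 200 in the table), so among factors the medians differed much less. Olfactory receptor genes listed at 0 had a median of 1 (290 of 386 in the table) and keratin-associated protein genes one of 2 (78 of 92). The motif TATAAA, searched on both strands, was present in 3264 of all 27305 promoters, in 4.97% of those of detected protein-coding genes and in 21.4% of those listed at 0. Among the 100 protein-coding genes of highest TPM it was present in 14 of the 77 found in the table (18.2%). It was present in 63 of the 78 keratin-associated protein promoters (80.8%) and in 34.5% of the olfactory receptor promoters. A match describes these letters only and is no evidence of binding.

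The symbols of highest level had different functions. ACTG1, cytoplasmic gamma-actin, was first with 3659 ± 221 TPM, and ACTB, beta-actin, had 2487 ± 117 TPM. TMSB10, an actin-binding thymosin, had 2866 ± 68.5 TPM and TUBB, a beta-tubulin, 1941 ± 113 TPM. IGFBPL1, a secreted relative of the insulin-like growth factor binding proteins, had 4037, 4017 and 4349 counts and 2826 ± 253 TPM. PTN, the secreted growth factor pleiotrophin of radial glia, had 4933, 5339 and 5705 counts and 2316 ± 102 TPM. EEF1A1 and EEF2, elongation factors of translation, had 1748 ± 71.7 and 1677 ± 154 TPM and RPS12, a ribosomal protein, 1631 ± 100.5 TPM. IGFBPL1 and PTN both exceeded GAPDH, a glycolytic enzyme often used as a reference, which had 1587 ± 67.0 TPM, in every library. FTL, the light chain of the iron store ferritin, stood at 2572 ± 67.0 TPM and SCD, the desaturase that makes oleic acid, at 1223 ± 115 TPM.

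**Figure D1:**
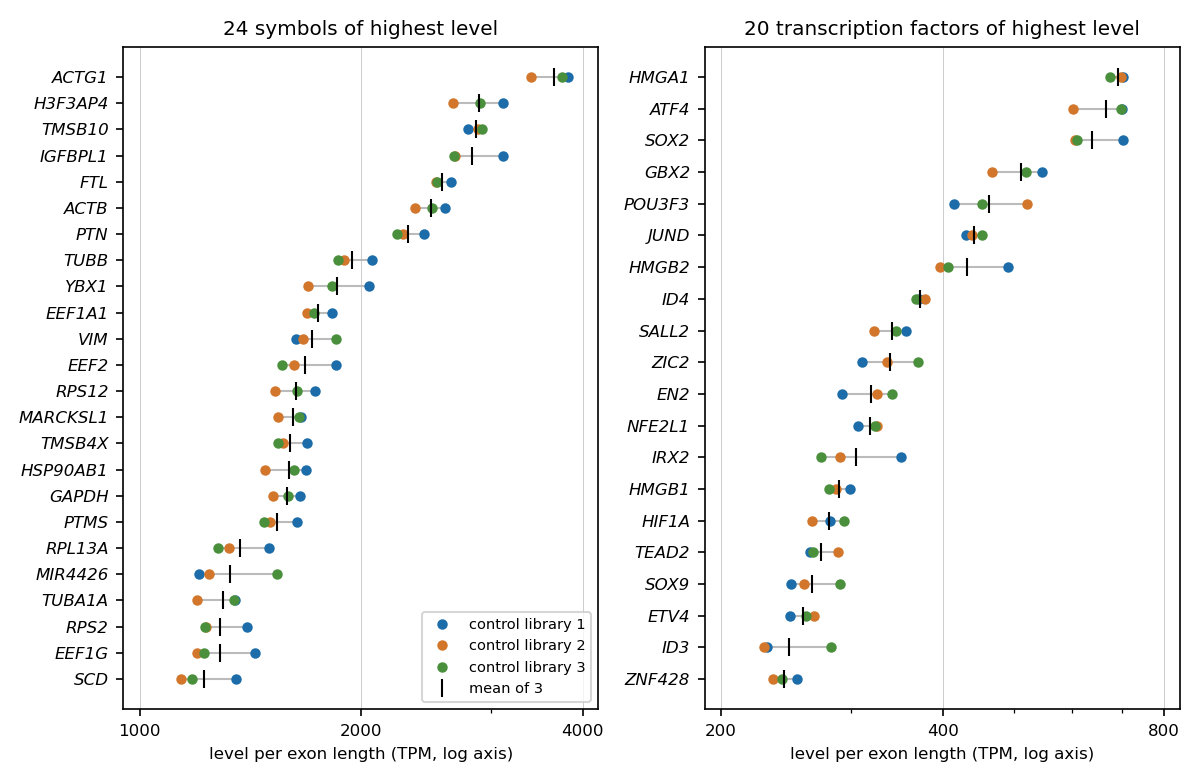
Level per exon length (TPM, log axes) of the 24 symbols of highest mean level at left and of the 20 transcription factors of highest mean level at right; each point is 1 of the 3 control libraries, the grey line spans them and the black tick is their mean. The symbols at left run from ACTG1 at a mean of 3659 TPM to SCD at 1223, the factors from HMGA1 at 692 to ZNF428 at 243, and neighbours in either order overlap in most cases.

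No few genes dominated the libraries. The 10 most abundant symbols held 1.69% ± 0.0568 of the counts, the first 100 held 8.54% ± 0.277 and the first 1000 held 36.9% ± 0.723 (n = 3). It took 1690 to 1790 symbols to reach 50% of a library. Of all symbols 2997 had a mean over 100 CPM and 20 a mean over 1000 CPM. By CPM, which also grows with gene length, ACTG1, EEF1A1, VIM, ACTB, FLNA, EEF2, SCD, TUBB, LAMC1 and SPARC were first, with means from 2359 down to 1165 CPM. FLNA encodes filamin A, LAMC1 a laminin chain and SPARC a matrix glycoprotein. Per length FLNA had 766 ± 11.3 TPM and LAMC1 678 ± 59.1 TPM, below all of the first 25.

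Some of the high levels per length belong to symbols whose reads could come from a near-identical gene. H3F3AP4, a processed pseudogene of the histone gene H3F3A, was second of all symbols with 1517, 1499 and 1774 counts over 411 bases, or 2894 ± 225 TPM. H3F3A itself had 326, 266 and 290 counts and 70.4 ± 14.8 TPM. How the authors' counting divided reads between such copies is not given in the sources used here, so both values are uncertain. MIR4426, with 90, 107 and 144 counts, reached 1328 ± 181 TPM over an annotated length of only 63 bases.

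Among 1169 transcription factor symbols, 816 were detected (69.8%, beside 48.8% of all symbols and 63.2% of protein-coding ones). Of the rest 153 were trace and 200 were listed at 0. They held 4.07% of all counts, and the detected ones had a median of 21.9 TPM, against 40.2 TPM for all detected symbols. Zinc finger genes of the ZNF series, many of them repressors of transposable elements, set much of the detected share. Of these, 461 of 529 were detected (87.1%), with a median of 17.6 TPM. Of the 600 factors that are neither ZNF nor ZBTB genes 316 were detected, a lower share than that of protein-coding symbols. HMGA1, a chromatin protein that binds AT-rich DNA, was the highest factor with 692 ± 14.9 TPM. ATF4, the factor of the amino acid and stress response, had 667 ± 57.3 TPM, and SOX2 with 639 TPM was the third. HMGA1 and ATF4 differed by less than the spread of ATF4, and so did ATF4 and SOX2. The factors were taken as families of gene symbols, which include the HMGA and HMGB chromatin proteins and the ID inhibitors. Their order holds for the joined exon length only. With the median transcript as length NFE2L1 had 706 TPM and ZIC2 529, above GBX2 (194), HMGA1 (185) and SOX2 (137).

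Below these 3 stood factors of neural position and identity, along with others such as JUND with 440.5, HMGB2 with 432 and NFE2L1 with 319 TPM. GBX2 (chr2:236165236-236168369), a homeobox factor of the anterior hindbrain, had 1496, 1479 and 1789 counts and 546, 467 and 519 TPM in libraries 1, 2 and 3. POU3F3, a POU factor of neural progenitors, had 462 ± 53.9 TPM and overlapped GBX2 between libraries. ID4, an inhibitor of basic helix-loop-helix factors, had 372 ± 5.47 TPM, SALL2 342 ± 17.6 TPM and ZIC2 339 ± 29.7 TPM. EN2, the engrailed factor of the midbrain-hindbrain boundary, had 319.8 ± 25.6 TPM and IRX2, an Iroquois factor, 305 ± 40.7 TPM. These 5 had overlapping libraries in this order, apart from ID4, and NFE2L1 stood between EN2 and IRX2. ID4 was above the other 4 in all libraries except for the 370.1 TPM of ZIC2 in library 3.

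SOX genes spanned a wide range. SOX2 led with 639 TPM, followed by SOX9, a factor of glial competence, with 266 ± 21.7 TPM, SOX12 with 202 ± 13.9 TPM, SOX4 with 166 ± 1.25 TPM, SOX11 with 139 ± 6.25 TPM and SOX21 with 92.1 ± 15.7 TPM. SOX1 and SOX3, the other members of the SOX2 group, were far lower, at 42.3 ± 5.57 and 32.5 ± 3.56 TPM. SOX10, the factor of neural crest and oligodendrocytes, SOX14 and SOX17 were listed at 0. In all, 12 of 19 SOX genes were detected (63.2%), about the share of all protein-coding symbols (63.2%).

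The list of 23 neural stem cell genes was nearly complete, with 22 detected (95.7%, beside 63.2% of all protein-coding symbols). Its summed level was 6886, 6878 and 7219 CPM in libraries 1, 2 and 3. The lowest detected member was PAX6. CDH2, the cadherin of the neuroepithelium, had 342 ± 9.43 TPM, and POU3F2 had 216 ± 10.7 TPM. LIN28A, an RNA-binding protein of early embryonic cells, had 1843, 1390 and 1731 counts and 311 ± 69.7 TPM. HMGA2, a chromatin protein of fetal stem cells, had 224 ± 12.3 TPM. FABP7, a fatty acid binding protein of radial glia, had 82.9 ± 1.57 TPM, with libraries closer to each other than counting alone gives on average. PROM1, the surface protein CD133, had 60.3 ± 14.3 TPM. HES5, a target of Notch signalling and common marker of neural stem cells, was listed at 0, while HES1, its relative, had 309, 335 and 426 counts.

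Genes known from cultured neuroepithelial stem cells were mostly present, 11 of 15 (73.3%, beside 63.2% of all protein-coding symbols). MMRN1, which encodes multimerin, had 1329, 1591 and 1445 counts and 197 ± 18.3 TPM, and PLAGL1, an imprinted zinc finger factor, 110.4 ± 9.55 TPM. NR2F1, a nuclear receptor of patterning, had 199 ± 39.1 TPM, ROR2, a WNT receptor, 129.6 ± 8.59 TPM and ZNF521 107 ± 6.46 TPM. LMO3 was listed at 0. Of the radial glia list 12 of 17 were detected (70.6%). PTPRZ1, a receptor phosphatase and receptor for pleiotrophin, was at 458 ± 10.3 TPM and LIFR, the receptor for leukaemia inhibitory factor, at 232 ± 21.3 TPM. HOPX, GFAP, NR2E1 and EMX2 of that list were listed at 0.

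The regional factors of high level were GBX2, EN2, IRX2 and ZIC genes, and the telencephalic list was almost without counts. Of 24 telencephalic and eye field genes, 1 was detected, LHX6 with 11, 10 and 8 counts, and 16 were listed at 0, among them EMX1, EMX2, SIX6, TBR1 and EOMES. OTX2, which marks the forebrain and midbrain, was listed at 0 as well. On the other side of the boundary GBX2 was the fourth highest of the factor symbols per joined exon length. At the boundary EN2 stood at 1173, 1514 and 1727 counts and PAX5 at 667, 684 and 810, and CNPY1, a modulator of FGF signalling there, at 190, 287 and 437. EN1 had only 9, 14 and 9 counts, and PAX2, LMX1B and FGF8, the signal of the boundary, were listed at 0. Of the midbrain and isthmus list 5 of 21 genes were detected (23.8%). The hindbrain list had 10 of 29 detected (34.5%) and 15 at 0. Both shares are below the 48.8% of all symbols.

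Iroquois genes, which have both diencephalic and hindbrain domains, were graded. IRX2 had 305 ± 40.7 TPM, IRX1 133 ± 10.7 TPM, IRX3 50.2 ± 2.16 TPM and IRX5 34.9 ± 2.05 TPM, and none of these ranges overlapped the next between libraries. BARHL1, BARHL2, LHX1 and LHX5, other factors of the diencephalon list, were listed at 0. Of the 6 detected genes of 20 on that list, GBX2, IRX3 and IRX5 also stand on other regional lists, and TCF7L2, with 42.7 ± 1.30 TPM, is a WNT effector used in many tissues.

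HOX counts came nearly all from 2 neighbouring genes of the HOXB cluster. Of 39 HOX genes, HOXB2 and its neighbour HOXB3 were detected, HOXC8 had a single count in library 2, and 36 were listed at 0. That is 5.13% of the family beside 48.8% of all symbols. HOXB2 had 16.7, 26.9 and 8.30 CPM in libraries 1, 2 and 3. HOXB3 (chr17:48548870-48604912) had 3.82, 5.95 and 2.04 CPM in the same order of libraries, highest in 2 and lowest in 3. HOXB-AS1, an antisense transcript between them, had 8, 18 and 8 counts; the libraries mark strand, but whether the counting used it is not given in the sources used here, so reads of this locus may be shared. HOXA2 and HOXA3 were at 0 in all 3 libraries. EGR2, the factor of rhombomeres that switches HOXB2 on in the hindbrain, had 30, 34 and 21 counts. Cofactors of HOX proteins were detected, among them PBX3 at 72.4 ± 1.29 TPM and MEIS2 at 21.3 ± 2.61 TPM.

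The highest genes of the dorsal neural tube list exceeded the highest of the ventral list in every library. Of the dorsal list 9 of 19 genes were detected (47.4%), the lowest being BMP4, and of the ventral list 5 of 14 (35.7%). Both shares are below the 48.8% of all symbols. Among the ZIC genes, zinc finger factors of the dorsal neural tube, ZIC2 had 339 TPM, ZIC1 219 ± 9.63 TPM, ZIC5 84.6 ± 3.84 TPM and ZIC4 21.8 ± 5.13 TPM. PAX3, a dorsal paired-box factor, had 73, 108 and 102 counts, and PAX7, WNT3A and ATOH1 were listed at 0. In the intermediate zone DBX1, DBX2 and GSX1 were listed at 0. Ventrally OLIG2, a factor of motor neuron and oligodendrocyte progenitors, had 16, 15 and 24 counts, OLIG1 34, 36 and 57 and NKX6-1 14, 18 and 8, and NKX2-2 and FOXA2 were listed at 0. SULF1, an enzyme that trims heparan sulphate and a marker of the floor plate among other places, had 70.5 ± 9.54 TPM.

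**Figure D2:**
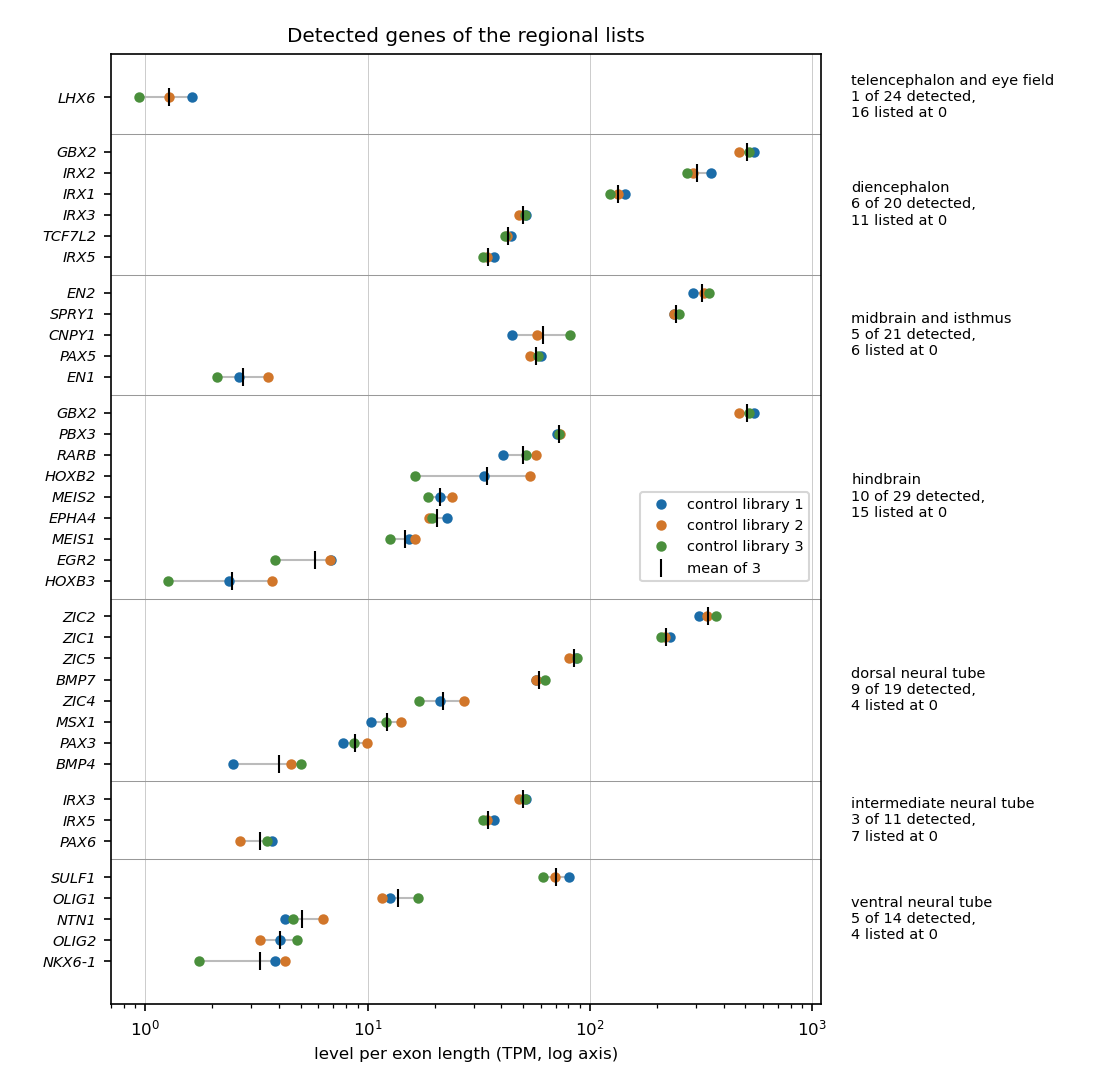
Level per exon length (TPM, log axis) of detected genes of 7 regional lists, 1 point for each control library, with the mean as a black tick; the text at right counts the genes detected and listed at 0 in each list, a gene on more than 1 list is drawn in each, and not every detected gene is drawn. The telencephalic list has 1 detected gene of 24, LHX6, while GBX2, EN2, IRX2 and ZIC2 lie between 273 and 546 TPM in all libraries and HOXB2 spreads from 16.4 to 53.8 TPM.

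Of 13 genes of pluripotent cells 5 were detected (38.5%, beside 48.8% of all symbols). NANOG, ZFP42, TDGF1 and PRDM14 were listed at 0, with 6 of 13 at 0 in all. POU5F1, which encodes the factor OCT4, had 363, 479 and 607 counts and 123 ± 17.6 TPM, while its near-identical copy POU5F1B had 3, 4 and 4 counts. DPPA4, a chromatin protein of early embryos, had 848, 768 and 1070 counts and 133 ± 18.0 TPM. DNMT3B, a de novo DNA methyltransferase, had 74.1 ± 6.75 TPM and SALL4 35.3 ± 3.07 TPM. With LIN28A these are the 5 detected members of the list. Reads of POU5F1 and of its processed pseudogenes can be alike, and the counting rule for them is not given in the sources used here.

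Of 30 neuronal genes 13 were detected (43.3%, beside 48.8% of all symbols and 63.2% of protein-coding ones) and 12 were listed at 0. Neurofilaments NEFM and NEFL had 235 ± 22.0 and 229 ± 48.1 TPM, MAP2, a dendrite protein, 197 ± 9.92 TPM, and TUBB3, a tubulin of young neurons, 162 ± 34.2 TPM, with 747, 856 and 1325 counts. DCX, of migrating neuroblasts, had only 7, 1 and 1 counts, and RBFOX3, ELAVL4, NEUROD1 and NEUROD4 were listed at 0. The factor NHLH2 and the synaptic genes SYT1, SNAP25 and SYP were also among those detected, and the transmitter enzymes GAD1, GAD2 and TH among those at 0.

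Some glial genes were at high levels and others at 0. Of 13 astroglial genes 10 were detected (76.9%, beside 63.2% of all protein-coding symbols). GFAP, the astrocyte filament, and ALDH1L1 were listed at 0. APOE had 374 ± 52.4 TPM, GJA1, the gap junction protein connexin 43, 361 ± 21.7 TPM, S100B 261 ± 39.1 TPM and GLUL, glutamine synthetase, 165 ± 15.9 TPM. Of 13 oligodendrocyte genes 7 were detected (53.8%), 4 were trace, and SOX10 and NKX2-2 were listed at 0. CNP was the highest of them with 134 ± 3.41 TPM. PDGFRA, of oligodendrocyte precursors, had 71, 88 and 60 counts.

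Markers of other lineages were measured to check the label of the cells. Blood and microglia genes were all but missing, with 2 of 15 detected (13.3%, beside 63.2% of all protein-coding symbols). PTPRC, CSF1R, P2RY12 and CD3E were at 0, and the summed level was 11.1, 13.3 and 11.2 CPM. Epithelial and endodermal genes were at 1 of 14 (7.14%), AFP with 21, 24 and 47 counts, and CDH1, KRT5, KRT14 and TP63 were listed at 0. Mesenchymal genes were detected in 18 of 20 cases (90%), with a summed level of 3921, 4526 and 4166 CPM. The detected ones had a median of 43.8 TPM, against 40.2 TPM for all detected symbols. COL1A2 and DCN were the lowest of them, and the highest are named next. SPARC had 1119.5 ± 52.5 TPM, COL3A1, a fibrillar collagen, 723 ± 93.8 TPM, TAGLN, an actin-binding protein of smooth muscle, 629 ± 108 TPM and POSTN, periostin, 272 ± 62.3 TPM. Whether they come from the neural cells or from other cells in the culture was not tested.

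Neural crest and endothelial genes were also present in part. Of 16 crest genes 12 were detected (75%, beside 63.2% of all protein-coding symbols). TFAP2B was at 170.3 ± 12.7 TPM, TWIST1 at 139 ± 15.8 TPM and SNAI2 at 106 ± 16.9 TPM. SOX10, FOXD3 and PAX7, which define the early crest, were at 0. Of 11 endothelial genes 9 were detected (81.8%). KDR, the receptor for VEGF-A, had 482, 1169 and 910 counts and 95.1 ± 34.1 TPM, TIE1 25.8 ± 4.56 TPM and CDH5, the cadherin of endothelial junctions, 12.7 ± 2.64 TPM. The summed level of the endothelial list was 164, 289 and 222 CPM in libraries 1, 2 and 3, so library 1 was the lowest and KDR made up most of it.

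Signalling genes were described by their role. Of 37 genes of the FGF and EGF pathways 24 were detected (64.9%), close to the 63.2% of all protein-coding symbols. The feedback inhibitors and targets were high: SPRY4 had 307 ± 26.8 TPM, DUSP6, a phosphatase of ERK, 333 ± 9.38 TPM, SPRY2 261 ± 8.94 TPM and the ETS factor ETV4 259 TPM. FGFBP3, a carrier of FGFs, had 593 ± 54.3 TPM. FGF5, FGF8 and AREG, ligands, were listed at 0.

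In the Notch pathway the receptors NOTCH3 and NOTCH1 had means of 182 and 98.9 TPM and the target HES1 128 ± 10.1 TPM. Of its 25 genes 21 were detected (84%, beside 63.2% of all protein-coding symbols), with HES5, HEY2 and MFNG at 0. In the WNT pathway 31 of 53 genes were detected (58.5%), a share between that of all symbols (48.8%) and that of protein-coding ones (63.2%). The receptor FZD2 had 491 ± 38.4 TPM and the secreted antagonists SFRP2 and SFRP1 359 ± 11.3 and 196 ± 12.9 TPM, while the ligands WNT2, WNT3A, WNT6 and WNT7A were listed at 0. Hedgehog transducers were present, SMO at 175 ± 9.82 TPM and GLI3 at 107 ± 7.76 TPM, and none of the 16 genes was listed at 0. In the retinoic acid pathway, 13 of 18 were detected (72.2%), led by the carrier CRABP1 with 432 ± 66.8 TPM.

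Cell cycle genes were nearly all detected. The threshold was passed by 36 of 37 (97.3%, beside 63.2% of all protein-coding symbols). PCNA, the replication clamp, was at 667 ± 61.4 TPM, TYMS, thymidylate synthase, at 622 ± 32.4 TPM and TOP2A, a topoisomerase of dividing cells, at 467 ± 50.7 TPM. CDKN1A, the p21 inhibitor of the cell cycle, was at 540.2 ± 47.0 TPM, between TYMS and TOP2A. CDKN2A, the locus of p16 and a classical Polycomb target, had 25, 34 and 22 counts. TERT, the catalytic subunit of telomerase, was the 1 gene of the list at 0.

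Polycomb genes, the family of the gene targeted in the rest of the series, were detected in 32 of 33 cases (97.0%, beside 63.2% of all protein-coding symbols). BMI1 itself had 463, 582 and 606 counts, or 95.2 ± 4.03 TPM, a spread no larger than counting gives, and its neighbour COMMD3 had 130, 178 and 190. The read-through symbol COMMD3-BMI1, also named in the labels as a target, was listed at 0 in all 3 controls. PHC2 led the list with 247 ± 11.3 TPM. EZH2, the methyltransferase of the other Polycomb complex, had 126 ± 7.48 TPM.

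A symbol listed at 0 is not always a silent gene. EIF4A1, a translation initiation helicase that every cell uses, was listed at 0, while the read-through symbol SENP3-EIF4A1 that covers it had 3941, 4115 and 4808 counts. Of 122 read-through symbols in the files 60 were detected and 36 listed at 0, and 10 of the detected ones had a component at 0. IGF2 had 2, 1 and 0 counts while INS-IGF2, which covers it, had 24, 17 and 3, so the level of IGF2 cannot be read from its own symbol. The zero of COMMD3-BMI1 is of the opposite kind, with both of its parts counted. How reads on shared exons were assigned was not given, so each 0 named here says only that no read was assigned to that symbol.

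Imprinted genes, of which 1 parental copy is normally used, differed widely. PEG10, a domesticated retrotransposon, had 6621, 6294 and 6573 counts and 728 ± 94.4 TPM. SNRPN, MEST and NDN had 266 ± 7.53, 262 ± 28.7 and 247 ± 13.2 TPM. H19, PEG3, NNAT and ZIM2 were listed at 0, and 19 of 26 were detected (73.1%, beside 63.2% of all protein-coding symbols).

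Several families, or large parts of them, were without counts or nearly so. None of 399 olfactory receptor genes was detected, and 386 were at 0. None of 93 keratin-associated protein genes, 38 beta-defensins, 26 MAGE genes, 17 type I interferons, 18 late cornified envelope genes or 11 haemoglobin genes was detected, and in each at most 1 had any count. The 25 MAGE symbols at 0 were MAGEA, MAGEB and MAGEC genes, while MAGEL2, outside that set, was detected. Keratins were at 1 of 55, KRT10. Among transcription factors no DLX gene (of 6) and no GATA gene (of 6) was detected, 1 of 16 T-box genes was, TBX2 with 54, 52 and 121 counts, and 1 of 12 LIM homeobox genes. At the other end all 76 mitochondrial ribosomal proteins, all 9 chaperonin subunits and all 12 SR splicing factors were detected, and the 3 proteasome symbols of 43 at 0 were PSMA8, PSMB9 and PSMB11, which belong to testis, immune and thymus forms.

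**Figure D3:**
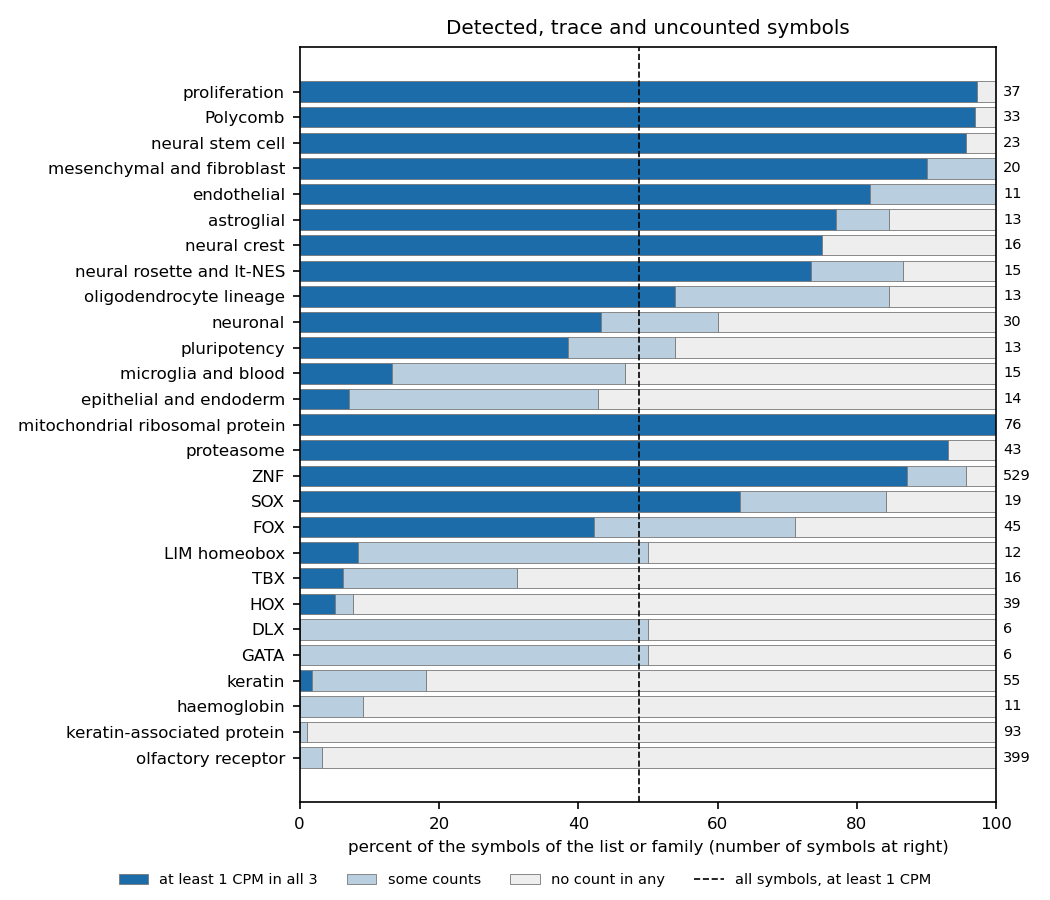
Percent of the symbols in each list or family that were detected (at least 1 CPM in all 3 control libraries, dark), had some counts (pale) or had no count in any library (grey), with the number of symbols at right and a dashed line at the 48.8% of all symbols that were detected. The neural stem cell, cell cycle and Polycomb lists and the mitochondrial ribosomal proteins are almost wholly dark, and HOX, keratin, keratin-associated protein and olfactory receptor genes almost wholly grey.

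Collagens were detected in 28 of 44 cases (63.6%), close to the 63.2% of all protein-coding symbols. COL3A1, COL2A1, the cartilage collagen, and COL5A2 led with 723, 489.7 and 368 TPM, and the summed level was 5050, 6453 and 5515 CPM. Clustered protocadherins, surface proteins that neurons use to tell themselves from others, were detected in 36 of 53 cases (67.9%) at a median of 5.44 TPM. Voltage-gated sodium channels were at 6 of 10 (60%), led by SCN8A with 24.3 ± 1.07 TPM and SCN1A with 15.4 ± 5.93. Of 56 cytochrome P450 genes 11 were detected (19.6%), led by CYP51A1, an enzyme of cholesterol synthesis, with 335 ± 17.0 TPM.

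The 3 libraries differed by more than counting, most clearly at high levels. At means of 1 to 10 CPM the median coefficient of variation was 21.3%, where counting gives 19.6%. At 100 to 1000 CPM it was 5.78%, where counting gives 3.15%, and above 1000 CPM 6.69%, where counting gives 1.18%. Over the 12918 detected symbols the median coefficient of variation was 8.47%, and the median variance was 1.78 times that of counting. The common biological coefficient of variation, estimated with edgeR without any contrast, was 8.66%. It fell to 6.95% without library 1 and was 9.06% and 9.90% without library 2 or 3. Pearson's r of log2(CPM + 1) across 13437 genes, which are not independent replicates, was 0.988 to 0.990 for the 3 pairs, and no pair agreed within sampling noise, with a chi-square per gene of 3.19 for libraries 2 and 3, and 4.39 and 4.85 for library 1 with them. Of the marker genes VIM, NES and SOX2 varied by 7.23%, 6.07% and 8.68%, and HOXB2 by 53.9% where counting gives 9.70%.

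**Figure D4:**
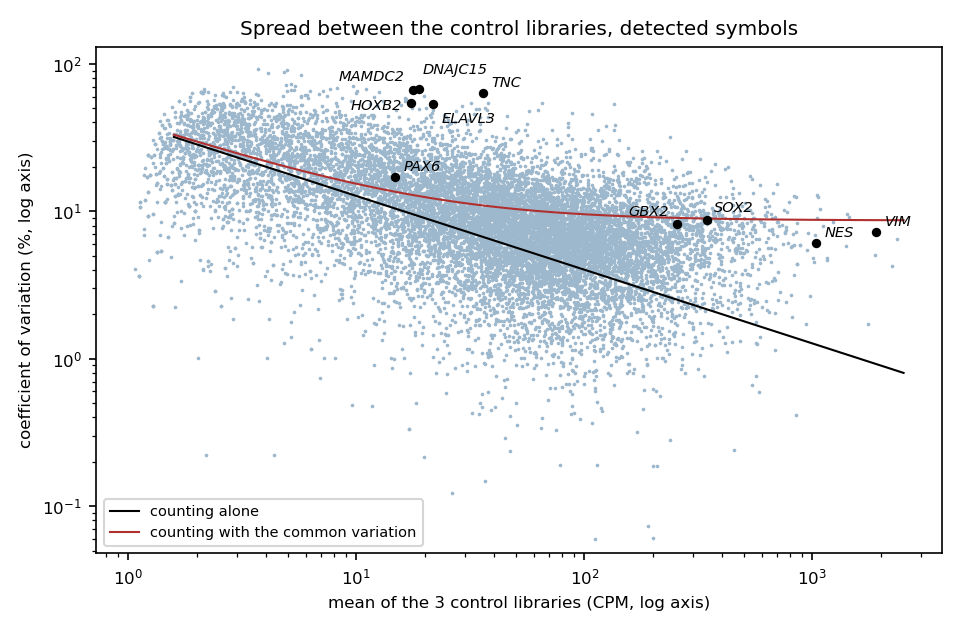
Coefficient of variation (%, log axis) against mean level (CPM, log axis) of the detected symbols over the 3 control libraries, without genes that mark a donor's sex; the black line is counting alone and the red line adds the common variation of 8.66%. SOX2, GBX2, NES and VIM lie near or below the red line, PAX6 just above it, and HOXB2, DNAJC15, TNC, MAMDC2 and ELAVL3 far above it.

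A small number of genes set the libraries apart. Among 10434 symbols with a mean of at least 10 CPM, 124 (1.19%) were at least 2-fold higher in one library than in another. Library 1 was at least 2-fold above the mean of the other 2 for 4 of the 10434 symbols (0.0383%) and as far below for 36 (0.345%); library 2 was above for 18 (0.173%) and below for 3 (0.0288%); library 3 was above for 7 (0.0671%) and below for 19 (0.182%). These ratios carry a pseudocount of 0.5 CPM. The genes named next, apart from CD44, were taken as the extremes of these ratios or as factors that differ 2-fold, so their values are a description, and no test was made.

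The genes that set library 1 apart were of several kinds. RNA45S5, the ribosomal RNA precursor, was at 217, 107 and 81.1 CPM in libraries 1, 2 and 3 and RNA28S5 at 106, 52.8 and 37.7 CPM. RN7SL1, the RNA of the signal recognition particle, had 36.7, 21.3 and 16.2 CPM, and all 3 were highest in library 1 and lowest in library 3. BMP3, a secreted BMP relative, was at 51.7, 21.0 and 22.7 CPM and SMOC1, a secreted matrix protein, at 26.9, 14.1 and 8.44 CPM, both highest in library 1. In the other direction MAMDC2 was at 4.37, 26.8 and 22.1 CPM, a log2 ratio of -2.36 for library 1, the largest of any. PHLDA2 was at 6.55, 16.8 and 25.6 CPM and TNC, the matrix protein tenascin-C, at 15.6, 31.5 and 60.7 CPM, both highest in library 3. CD44, a receptor for hyaluronan, was at 15.6, 39.0 and 44.0 CPM. The part of ribosomal RNA content in these differences was not tested.

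Library 3 was low, and library 2 high, for a set of genes of different function. DNAJC15, a mitochondrial co-chaperone, was at 17.1, 32.2 and 6.99 CPM, ALG10B, a glycosylation enzyme, at 19.3, 32.1 and 8.15 CPM and ZNF681 at 13.3, 20.5 and 5.68 CPM. GSTK1 was at 8.73, 19.4 and 5.09 CPM. MYD88, an adaptor of innate immune receptors, was at 6.55, 17.4 and 6.11 CPM, nearly as low in library 1 as in library 3. Of all 124 genes 68 were highest in library 2, 75 lowest in library 1 and 34 lowest in library 3. The commonest order was library 2 highest and 1 lowest (42 genes), then 3 highest and 1 lowest (33). Library 2 was highest and 3 lowest for 26. ELAVL3, a neuronal RNA-binding protein, went the other way, with 121, 64 and 228 counts, lowest in library 2, although library 1 has the smallest total.

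Of the 630 transcription factors with at least 10 CPM, 11 (1.75%) differed at least 2-fold between libraries, beside 1.19% of all genes. HOXB2 was among them, with 3.25 times between the highest and the lowest library. ZNF154 had 13.6, 22.7 and 8.44 CPM and EGR1, an immediate early gene, 28.2, 37.6 and 15.9 CPM. In these 3, library 2 was the highest and library 3 the lowest. FOSL1 and FOSL2, of the AP-1 family, were lowest in library 1 instead, with 11.5, 22.9 and 25.6 and 9.46, 13.8 and 19.8 CPM. Of the 13 clustered protocadherins at that level 4 differed at least 2-fold.

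**Figure D5:**
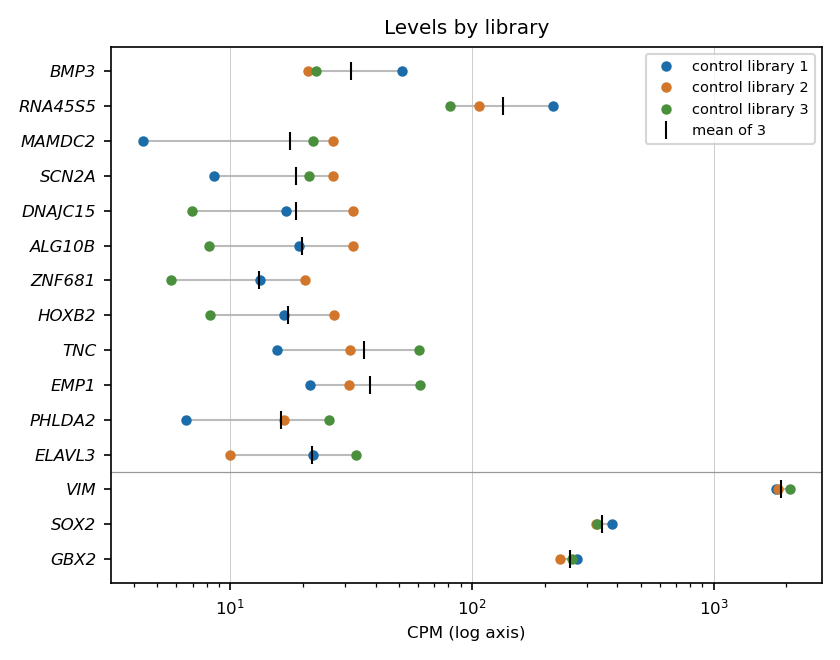
CPM (log axis) in each of the 3 control libraries for 12 genes that differ between them and, below the line, 3 that do not differ as much; the black tick is the mean. DNAJC15, ALG10B, ZNF681 and HOXB2 share one order of libraries, with 2 the highest and 3 the lowest, and TNC, EMP1 and PHLDA2 another, with 3 the highest and 1 the lowest.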

How the data were processed

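For each library the authors deposited raw read counts per gene symbol, whole numbers with a total of their own. Per the submitters' processing notes, the tools included STAR 2.7.10a, bedtools and Trim Galore 0.6.6, with hg38 as the genome. Neither the counter nor its annotation or strand setting is named there. RNA was made into libraries with a directional kit, per the labels' protocols. Groups and library numbers come from the sample titles.

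CPM were computed as counts over the library total (5496683 to 6870122 counts). TPM used the joined exon length of the symbol in GENCODE release 29 (24649 of 26485 symbols matched, 749 of them through an older symbol; 0.317% of counts had no length). Means and SDs are over 3 libraries. No test was made, since 1 group gives no contrast. The common variation was estimated with edgeR 4.0.16 in R 4.3.3 with an intercept only, after a check on simulated data; tables were made with Python 3.11.15, pandas 2.3.3 and numpy 2.4.6.

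Members, lists and families were chosen with earlier results of these data known. Genes were named by rule: the markers, the highest symbols and factors, up to 6 detected and 4 absent members of each list and family, all detected regional genes, and the 6 most extreme ratios per library and direction. Named after their values were seen were SENP3-EIF4A1, EIF4A1, INS-IGF2, IGF2, POU5F1B, H3F3A, BMI1, COMMD3, HOXB3, HOXB-AS1, HOXC8, RNA45S5, RNA28S5, CDKN2A, FABP7, PROM1, SOX3, DCX, CD44, NHLH2, SYT1, SNAP25, SYP and TH, and the factors that differed between libraries. Some zeros were named beside these as members of the lists. Genes that mark a donor's sex were left out of names and plots. Promoters came from the RefSeq table (first listed start of each symbol). A few genes of the lists are not reported here.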

Additional observations from a re-analysis of the deposited data

How the results depend on the processing

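The count of detected symbols was 12434 to 13620 and that of detected transcription factors 793 to 844 under thresholds of 0.5 CPM, of 1 CPM in 2 of 3 libraries and of 10 counts; 2 HOX genes were detected under each of them and without any library. Symbols listed at 0 rose from 8537 to 8909 to 9130 when a library was left out. Leaving out ribosomal proteins put the first 10 symbols at 1.73% of the counts. The common variation of 8.66% was 8.71% without a filter, 8.61% with TMM factors, and 6.95% to 9.90% with a library left out, lowest without library 1. TMM factors (0.987 to 1.01) and RLE factors (0.984 to 1.01) moved none of 24 CPM values (the 5 markers and the 20 highest transcription factors, SOX2 being in both) by more than 1 SD. Leaving out a library cannot move a mean of 3 libraries by 1 SD of the same 3, so that check decides nothing for these values. Levels per length depend on the length chosen: with the longest transcript 19 of 24 TPM values moved by more than 1 SD and 18 of the first 25 symbols and 19 of the first 20 factors were shared, and with the median transcript 22 moved and 5 and 6 were shared. No paired analysis was possible because 1 group was described and no comparison was tested. Depth limits statements on genes near 1 CPM, where 5.50 to 6.87 counts stand behind a value.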
